A study of Mus musculus with 2 samples.

Results

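The cells described here were sought as macrophages of mouse epididymal fat with transcripts known from macrophages of the body cavities, such as Prg4 and Alox15. They were chosen by their own counts. In the knockout library 65 of the 94 members had a Prg4 UMI, and in the wild-type library 7 of the 31. A barcode needed 1500 UMIs or more (unique molecular identifiers, each standing for 1 captured transcript), 500 genes or more and no more than 15% mitochondrial UMIs. It was a member if Prg4, Serpinb2, Alox15, F5 and F10 together gave 5 UMIs or more. It also needed at least 10 Lyz2 UMIs per 10000, at most 1 UMI of the mesothelial genes Msln and Upk3b, and under 40 UMIs per 10000 of Col1a1, Col3a1 and Dcn. This gave 125 members among 21117 barcodes that passed the filter. The knockout library held 94 of them, 1.17% of its 8032 passing barcodes (95% Clopper-Pearson interval 0.947% to 1.43%), and the wild-type library 31, or 0.237% of 13085 (0.161% to 0.336%).

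The study set Camk2d myeloid conditional knockout mice against wild-type mice, both after 10 weeks of high-fat diet. It sequenced single cells of the stromal vascular fraction of their epididymal fat, which is what remains once mature adipocytes are taken out. There was 1 library per genotype. The labels name neither the Cre driver, the deleted exons, the age of the mice, nor how many animals went into a library. A description field names embryonic hindlimb where every other label names fat.

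Camk2d encodes the delta chain of the calcium/calmodulin-dependent protein kinase II. Epididymal fat hangs in the peritoneal cavity under a layer of mesothelial cells, and that cavity holds its own macrophages. Large cavity macrophages are known in the mouse for the transcription factor GATA6, which retinoic acid helps to maintain, and for lubricin, factor V, TIM4, ICAM2 and 12/15-lipoxygenase. Small cavity macrophages are known for MHC class II, CCR2 and IRF4. Of the 5 genes of the gate, Prg4 encodes the lubricant lubricin, Serpinb2 the inhibitor PAI-2 of the plasminogen activators, Alox15 the 12/15-lipoxygenase that oxidises polyunsaturated fatty acids, and F5 and F10 the coagulation factors V and X.

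With 1 library per genotype no difference has a replicate check, so no test was made, and intervals cover counting error only. Levels are UMIs summed over a group of cells and scaled to counts per 1000000 UMIs of that group (CPM). The members were set against 1099 other macrophages of the knockout library, which were not members and had Lyz2, C1q and Adgre1 or Csf1r transcripts, at most 1 T or B cell receptor complex UMI, and the same limits on mesothelial and stromal genes. Since the rule compares the same cells, the values below describe the members and support no claim beyond that. The libraries held 10631 barcodes and 87015918 UMIs (knockout, median 7385 UMIs per barcode) and 15555 barcodes and 75436677 UMIs (wild type, median 3094). The labels give 10000 to 13000 loaded cells. 48 barcode sequences occur in both libraries, 1 of them that of a knockout member. Transcripts of sperm and spermatids (8 markers) came to 51.3 CPM in the knockout library and 0.199 CPM in the wild-type library, while mesothelial transcripts (11 markers) came to 118 and 100.2 CPM.

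The gate took in cells of 2 kinds. In the knockout library 64 members carried 10 or more Prg4 UMIs, 29 carried 0 and 1 carried 1, with no member at 2 to 9. The 64 are called Prg4 members below, a split chosen after the values were seen. Their gate genes summed to 24 to 335 UMIs (median 171), and 59 of the 64 had all 5 genes. The other 30 had 5 to 21 gate UMIs (median 7.5). F10 was the largest of the 5 in 27 of these, and the single one present in 21, so they are called F10-led members.

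**Figure D1:**
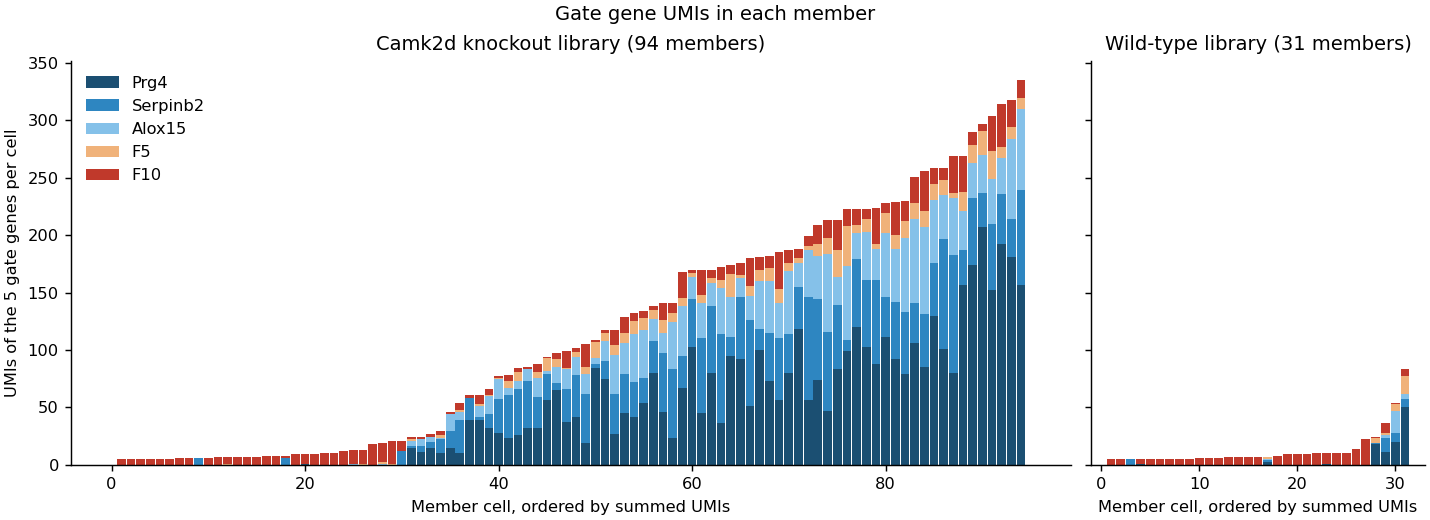
Stacked UMIs of the 5 gate genes (y axis) in each member (x axis, ordered by the sum), with 94 knockout members on the left and 31 wild-type members on the right. In the knockout library the 64 bars on the right, of 24 UMIs or more, hold Prg4, and the 30 on the left, of 21 or fewer, are mostly F10; in the wild-type library 4 bars hold 10 or more Prg4 UMIs.

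Of the cavity macrophage markers outside the gate given here, all but Gata6 were found in most Prg4 members. All were found in few or no F10-led members. Saa3 and Cd5l came with the label, and the kinds were split after the values were seen. The values thus describe the kinds and are no independent check of the label. Saa3, a serum amyloid A of the acute phase, and Cd5l, a secreted scavenger protein of macrophages, had a UMI in 62 of 64 Prg4 members each. Timd4, the TIM4 receptor for phosphatidylserine on dying cells, and Icam2, an adhesion molecule, did so too, each in 62 of 64. Among the 30 F10-led members Timd4 had none, Saa3 was found in 2, and Icam2 and Cd5l in 4 each. Gata6 had a UMI in 23 of 64 Prg4 members and in 0 of 30 F10-led ones. At the threshold the cells looked like the F10-led kind: of the 44 knockout cells with 3 or 4 gate UMIs, 40 had F10 and 5 had Prg4, and of the 10 with 5 or 6, 9 had F10 and 0 had Prg4. Saa3 came to 0 CPM just outside, 4.17 CPM just inside, and 1538 CPM in the 66 cells with 20 gate UMIs or more.

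The kinds also differed in depth. Median UMIs were 18079 in Prg4 members, 24857.5 in F10-led members and 12243 in other macrophages. A gate set in UMIs admits deep cells more readily, and the part of depth in the F10-led members was not tested. Of 1168 T cells of the library, which should lack these genes, 2.74% had a Prg4 UMI at a median of 5532.5 UMIs, against 4.73% of other macrophages. The level in T cells was 4.69 CPM and in other macrophages 3.69 CPM. After thinning to 1500 UMIs per cell the shares were 0.455% of other macrophages (5 cells) and 0.685% of T cells (8 cells). Other macrophages were not members and so held under 5 gate UMIs each, a limit that T cells did not have. These values therefore cannot decide whether Prg4 in other macrophages exceeds that in cells that should lack it. Subtracting free RNA, an estimated 6.50% of the UMIs of other macrophages, left part of the Prg4 of other macrophages. The log2 ratio of members over other macrophages was then 10.28 in place of 9.18.

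The gate genes themselves, given as description, lay in few cells. Prg4 (chr1:150449412-150466165 in GRCm38) was at 2167 CPM (2105 to 2229) in all 94 members and 3.69 CPM (2.8 to 4.79) in other macrophages, and 80.5% of its UMIs in passing knockout barcodes fell in members. Across the 64 Prg4 members it ranged in UMIs per 10000 from 5.23, a median of 33 and a maximum of 154. Serpinb2 (chr1:107511423-107535478) was at 1200.3 CPM against 2.33 CPM, with 79.7% of its UMIs in members. Alox15 (chr11:70344152-70352031) was at 901 against 1.1 CPM, with 82.8%, and F5 (chr1:164151838-164220277) at 264 against 0.583 CPM, with 77.0%. F10 (chr8:13037308-13056676) differed from the other 4 in its spread: it was at 615 CPM in Prg4 members, 291 CPM in F10-led members and 11.9 CPM in other macrophages.

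Within the Prg4 members some pairs of gate genes varied together and others did not. Over all 94 members Prg4 and Serpinb2 had a Spearman correlation of 0.67 in UMIs per 10000, and within the 64 it was 0.02. Prg4 with Alox15 gave 0.15, Prg4 with F5 0.39, and Alox15 with F10 0.36 within the 64. Serpinb2 gave 0.49 with Thbs1, the matrix protein thrombospondin 1, and Thbs1 with Fn1, fibronectin, at 0.65. These are over cells of 1 library that share its depth and free RNA, and are given without a test.

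Against other macrophages, 217 of 2916 genes at 50 CPM and 30 UMIs or more in the higher group were at least 2-fold higher in the members (7.44%) and 207 at least 2-fold lower (7.1%). In Prg4 members alone these were 314 (10.6%) and 397 (13.4%) of 2966, and in F10-led members 102 (3.51%) and 195 (6.72%) of 2902. Outside the gate, genes with a high ratio in the members included Vmn2r26, a gene of the vomeronasal receptor family, at 126 against 0.0648 CPM, a log2 ratio of 10.34 (95% interval 8.43 to 16.23). The other group held 1 Vmn2r26 UMI, as it did for Prss35, named as a serine protease (80.3 against 0.0648 CPM), and Nt5e, the CD73 enzyme that makes adenosine (67.4 against 0.0648 CPM), so these ratios have wide intervals. Secreted signals followed: Wnt2 was at 98.8 against 0.13 CPM and Tgfb2 at 197 against 0.389 CPM. Lrg1, a secreted leucine-rich glycoprotein, was at 334 against 0.778 CPM, and Prtn3, proteinase 3, at 291 against 0.713 CPM. Gbp2b, a guanylate-binding protein, was at 67.9 against 0.389 CPM. Trem1, a receptor that amplifies inflammation, was at 72 against 0.259 CPM, with a log2 ratio of 7.95 that came to 4.50 when other macrophages were not asked to hold C1q.

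The genes whose detection over the 1193 members and other macrophages was most like that of the gate genes, of 11616 compared, were Lrg1 (Spearman 0.48), Selp (0.48), Vmn2r26 (0.47), Slc7a11 (0.47) and Prtn3 (0.47). Selp encodes P-selectin and Slc7a11 the cystine transporter of glutathione synthesis. Lrg1 was found in all 64 Prg4 members and Selp in 60, and neither in any F10-led member. Lrg1 was thus at least 154.5-fold higher in Prg4 than in F10-led members and Selp at least 77.9-fold, taking 3 UMIs in the F10-led group as the limit of a count of 0.

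Genes known from large cavity macrophages, outside the gate, were mostly higher in the members. Of 27 listed, 25 reached 10 CPM, of which 23 were at least 1.5-fold higher in the members and 2 lower, with a median log2 ratio of 5.53. Over all 7633 genes at that level 10.2% were higher, 16% lower and the median was -0.07. In Prg4 members alone 23 of 25 were higher and 2 lower (median 6.23), beside 14.8% and 23.3% of all genes. The list was drawn up with results of these data known, and most of it passed the level through the members, so the counts are a description. Identity genes were at Timd4 176 CPM (159 to 194) against 11 CPM, Icam2 271 CPM (249.9 to 294) against 9.98 CPM, and Gata6 20.8 CPM (15.2 to 27.8) against 1.1 CPM. Rarb, a retinoic acid receptor, was at 10.6 against 0.389 CPM. Gata6 was not a gene of these cells alone: 1.73% of its UMIs in passing knockout barcodes lay in members and 3.49% in the 37 mesothelial cells, where it was at 184 CPM.

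Matrix and scavenger genes of the list were abundant. Fn1 was at 5317 CPM in members and 408 CPM in other macrophages, and Thbs1 at 1301 against 25.9 CPM. Ltbp1, which binds latent TGF-beta, was at 259.9 against 3.56 CPM and the laminin receptor chain Itga6 at 467 against 24.6 CPM. Saa3 was at 992 CPM (951 to 1035) against 6.54 CPM and Cd5l at 381 CPM (356 to 408) against 8.23 CPM. Hdc, which makes histamine, was at 118 against 2.27 CPM, and Cxcl13, the B cell chemokine, at 145 against 2.59 CPM. The 2 listed genes that were lower were Vsig4, a complement receptor, at 3.69 against 62.4 CPM, and Fcna, ficolin A, at 99.3 against 256 CPM. Both were high in resident-gated macrophages, at 153 and 769.7 CPM, and Fcna was also below those cells in the Prg4 members, at 148 CPM.

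F10-led members lacked most of these genes. Besides Gata6, Timd4, Selp and Lrg1, they held no UMI of Tgfb2, Cxcl13, Hdc, Prtn3 or Wnt2. Timd4 was at least 81.3-fold and Tgfb2 at least 90.9-fold higher in Prg4 members. Of the 27 listed, 10 were measured in F10-led against other macrophages, with 4 at least 1.5-fold higher and 4 lower (median -0.24). Of all genes 12.9% were higher and 17.9% lower. Among the listed genes that F10-led members held was Fn1 at 3567 CPM, against 6437 CPM in Prg4 members. Bhlhe40, a transcription factor, was at 159.7 against 516 CPM, and Thbs1 had a UMI in 11 of 30 F10-led members.

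Since these genes lay in the same cells, their promoters were searched for the letters AGATAA and TGATAA, forms of the GATA motif, on both strands in the 250 bases before the start given by RefSeq (GRCm38.p6). Of the 32 gate and listed genes 22 were matched, and 4 held the letters (18.2%), against 18.8% of all 27025 genes. The 3 promoters shown belong to the marker genes Serpinb2, Cd5l and Saa3, which held them. Capitals mark the letters, which begin 41, 127 and 134 bases before the start given by RefSeq. The Serpinb2 coordinates given further up begin at 107511423, within its window and before its marked letters. By those coordinates the Serpinb2 letters lie inside the gene. The windows are chr1:107511260-107511509 on the plus strand, chr3:87357631-87357880 on the plus strand and chr7:46715677-46715926 on the minus strand, each written 5′ to 3′ along its gene.
Serpinb2: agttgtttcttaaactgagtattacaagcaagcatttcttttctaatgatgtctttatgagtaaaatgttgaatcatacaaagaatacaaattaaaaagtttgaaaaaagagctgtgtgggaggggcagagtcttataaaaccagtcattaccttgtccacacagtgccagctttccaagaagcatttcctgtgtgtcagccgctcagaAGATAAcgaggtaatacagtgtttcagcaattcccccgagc
Cd5l: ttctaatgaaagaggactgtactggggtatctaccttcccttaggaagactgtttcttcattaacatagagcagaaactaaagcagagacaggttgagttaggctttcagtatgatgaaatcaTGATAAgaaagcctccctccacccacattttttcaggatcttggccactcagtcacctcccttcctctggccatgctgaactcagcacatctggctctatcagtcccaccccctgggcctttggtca
Saa3: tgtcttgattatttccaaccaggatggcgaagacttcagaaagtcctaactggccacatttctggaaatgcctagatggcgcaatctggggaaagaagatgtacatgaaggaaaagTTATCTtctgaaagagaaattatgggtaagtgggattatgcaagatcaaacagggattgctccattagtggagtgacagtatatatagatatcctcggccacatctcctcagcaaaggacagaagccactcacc
In Saa3 the letters are on the other strand. The share among these genes is near that of all promoters, and a match is a description of letters only.

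**Figure D2:**
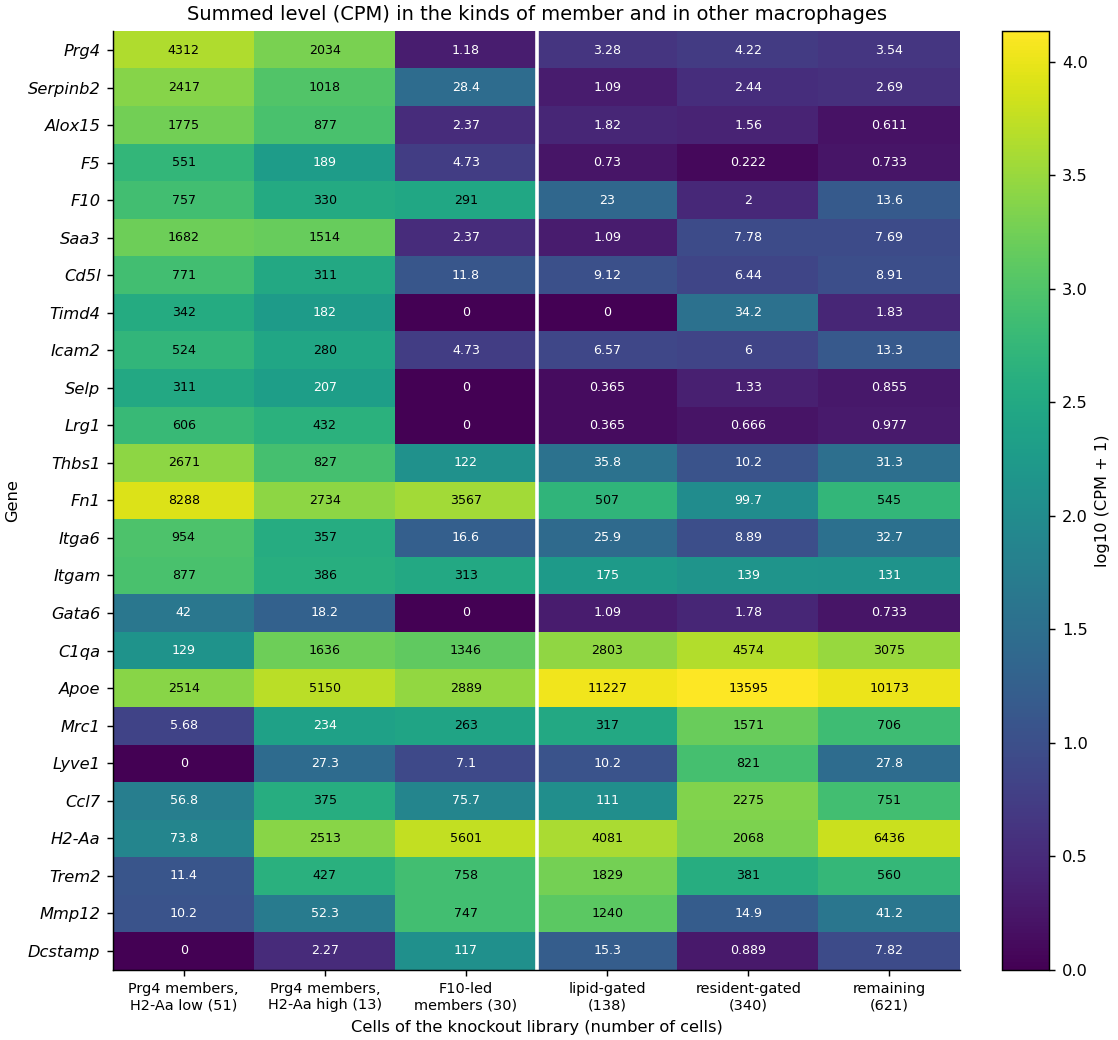
Summed level in CPM (numbers; colour is log10 of CPM + 1) of 25 genes (rows) in the kinds of knockout member, left of the white line, and in other macrophages of the same library, right of it. Prg4 was at 4312 CPM in the 51 Prg4 members low in H2-Aa and 1.18 CPM in the 30 F10-led members, and H2-Aa at 73.8 and 5601 CPM in the same groups.

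MHC class II split the Prg4 members again. H2-Aa, an MHC class II chain, ran from 0 to 3.23 UMIs per 10000 in 51 of them and from 11.6 to 57.6 in 13, with none between. Against other macrophages the 51 had 388 of 3010 genes at least 2-fold higher (12.9%) and 579 lower (19.2%), and by the 1.5-fold rule for lists 17% and 31.3%. In the 51, H2-Aa was at 73.8 CPM and the invariant chain Cd74 at 114 CPM, against 4743 and 8823 CPM in other macrophages. The 13 held 2513 and 4888 CPM. They also held more C1qa (1636 against 129 CPM in the 51), Retnla (1752 against 86.3 CPM) and Trem2 (427 against 11.4 CPM), and less Prg4 (2034 against 4312 CPM). Beside this, their median depth was 36175 UMIs (6234 to 61777) against 16782 (3376 to 29163), and 6 of the 13 had a Scrublet doublet score over 0.25 against 0 of the 51. Whether the 13 barcodes hold 2 cells each was not tested further. The cut was chosen after the values were seen.

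**Figure D3:**
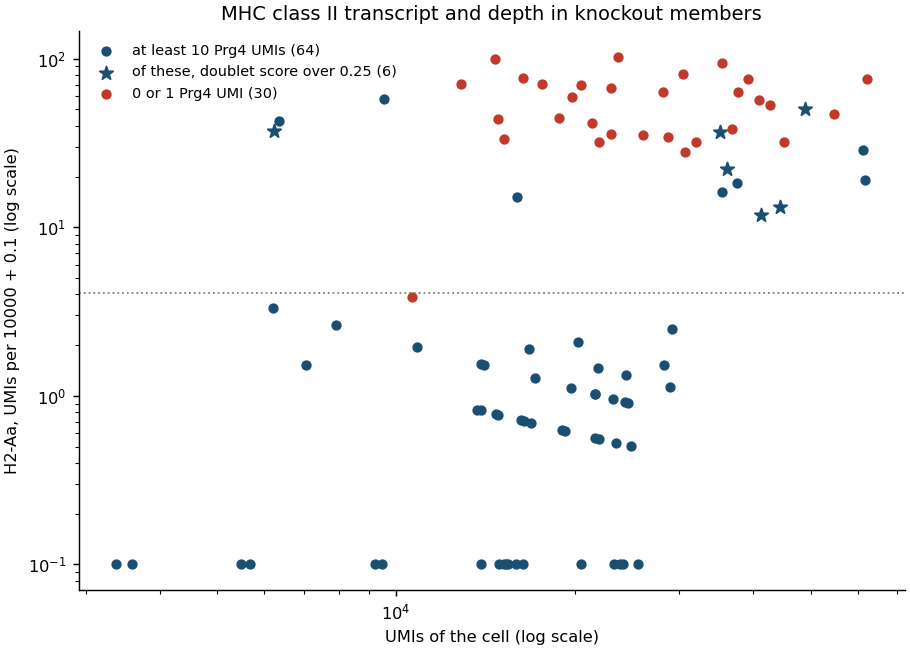
H2-Aa in UMIs per 10000 plus 0.1 (y axis, log scale) against UMIs (x axis, log scale) in 94 knockout members, blue with at least 10 Prg4 UMIs and red with 0 or 1. Stars mark the 6 with a doublet score over 0.25; the dotted line at 4 lies between the 51 Prg4 members at 3.23 or less and the 13 at 11.6 or more.

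Small cavity macrophage and antigen presentation genes were accordingly low in the Prg4 members. All 12 listed genes were measured, and in the 94 members 8 were at least 1.5-fold lower and 1 higher, with a median log2 ratio of -0.70. In Prg4 members 11 of 11 measured were lower (median -2.42, list background 23.3% lower and 14.8% higher), and in the 51 low in H2-Aa, whose split used a gene of the list, the median was -5.20. In F10-led members 3 of 12 were higher and 1 lower (median 0.35, background 12.9% higher and 17.9% lower). Ccr2, the receptor that brings in monocytes, was at 26.5 CPM in Prg4 members, 294 CPM in F10-led members and 199.5 CPM in other macrophages. Irf4 was at 7.57, 88.7 and 27.7 CPM in the same groups, and Cd226, an adhesion receptor, at 0, 42.6 and 4.54 CPM. The lectin Clec10a was lower in both kinds, at 34.8 CPM in Prg4 members and 69.8 CPM in F10-led members, against 308 CPM.

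Resident macrophage genes were low in both kinds of member, with 12 of 13 lower in Prg4 members (median -3.03) and 12 of 13 in F10-led ones (median -2.36), beside 23.3% and 17.9% of all genes. The median was -6.10 in the 51 Prg4 members low in H2-Aa. In all 94, 12 were at least 1.5-fold lower and 0 higher, with a median log2 ratio of -2.54. Lyve1, the hyaluronan receptor, was at 8.31 CPM (4.92 to 13.1) against 256 CPM, Cd163, the haemoglobin scavenger receptor, at 14.8 against 143 CPM, and the mannose receptor Mrc1 at 152 against 889 CPM. Selenop, a selenium carrier, was at 805 against 3925 CPM, Gas6, which bridges dying cells to TAM receptors, at 37.9 against 294 CPM, and F13a1, the A chain of factor XIII, at 97.9 against 796 CPM. Ccl24, the eotaxin-2 chemokine, did not share this pattern, at 379 CPM in members and 342 CPM in other macrophages. In the 51 Prg4 members low in H2-Aa, Lyve1, Chp2 and Gpr34 had 0 UMIs, so that other macrophages were at least 75.2, 26.8 and 25.01-fold higher. Further genes with low ratios were Cd209g (0.462 against 54.6 CPM) and Cd209f (2.77 against 144 CPM), both C-type lectins. Cbr2, a carbonyl reductase, was at 24.9 against 269.6 CPM, Pla2g2d, a secreted phospholipase, at 3.23 against 54.3 CPM, and Fxyd2, a sodium pump subunit, at 11.1 against 105 CPM.

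Lipid-associated macrophage genes set the kinds apart. Of 18 listed, 3 were at least 1.5-fold higher and 7 lower in the 94 members (median -0.44), beside 10.2% and 16% of all genes. In Prg4 members 2 were higher and 14 lower (median -1.60), beside 14.8% and 23.3%. In F10-led members 6 were higher and 3 lower (median 0.23), beside 12.9% and 17.9%. The lower count in F10-led members was thus near the share of all genes. In the 51 Prg4 members low in H2-Aa the median was -3.17. Mmp12, macrophage elastase, was at 24.2 CPM in Prg4 members, 747 CPM in F10-led members and 1240.5 CPM in the 138 lipid-gated macrophages. Lipoprotein lipase, Lpl, was at 753, 4295 and 5155 CPM, and the lipid receptor Trem2 at 149.9, 758 and 1829 CPM. Much of the Prg4 members' Lpl and Trem2 lay in the 13 high in H2-Aa, with 1825 and 427 CPM, against 217 and 11.4 CPM in the 51. Apoe was lower in both kinds, at 3392 CPM in Prg4 members and 2889 CPM in F10-led members, against 11358 CPM in other macrophages. Spp1, osteopontin, went the other way in Prg4 members, at 347 against 40.4 CPM, as did the tetraspanin Cd9, at 1168 against 239 CPM.

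In F10-led members the leading ratios included genes that were low in Prg4 members. After F10, their ratio to other macrophages was highest for Dcstamp, a membrane protein of cell fusion, at 117 against 7.13 CPM. Slc7a11 followed at 55.6 against 4.99 CPM, though it was higher still in Prg4 members, at 236 CPM. Next came the hexose transporter Slc2a6 at 73.3 against 6.61 CPM and Aldh1a2, which makes retinoic acid, at 150.2 against 14.2 CPM. Cxcl3 was at 158 against 18.7 CPM, the lysozyme Lyz1 at 646 against 78.9 CPM, and the ribonuclease Ear2 at 590.1 against 100.3 CPM. Set directly against them, Prg4 members had 344 of 2979 genes at least 2-fold higher (11.5%) and 400 lower (13.4%). The 1.5-fold rule gave 20.7% and 25.4%, and by it 24 of 24 measured cavity genes were higher (median 5.85, or 5.72 with genes at 0 UMIs set at their limit). Most of the 24 reached the level only through the Prg4 members, and 9 had 0 UMIs in 1 group. The list was drawn up with results of these data known and the kinds were split on Prg4, so this count is a description. In Prg4 members Cxcl3 was at 7.57 CPM, Lyz1 at 82.5 CPM, Ear2 at 37.1 CPM, Dcstamp at 0.757 CPM and Aldh1a2 at 22.7 CPM.

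**Figure D4:**
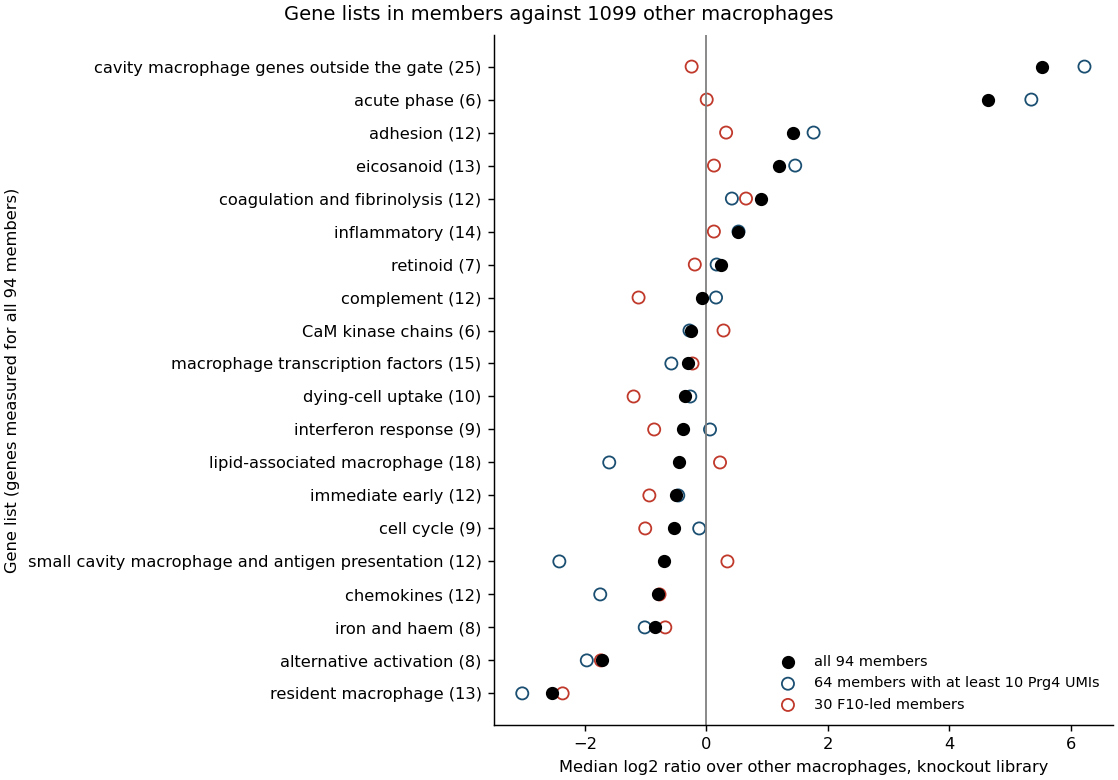
Median log2 ratio over 1099 other macrophages (x axis) of 20 gene lists (y axis, with the number of genes measured for all members), for all 94 members (black), 64 Prg4 members (blue) and 30 F10-led members (red). Cavity genes lie at 5.53 for all members and resident macrophage genes at -2.54; the cavity point of F10-led members rests on 10 measured genes and their acute phase point on 1.

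Coagulation genes outside the gate went both ways, and eicosanoid genes were mostly higher. Of 9 measured coagulation and fibrinolysis genes outside the gate, 3 were at least 1.5-fold higher and 4 lower (median -0.38), beside 10.2% and 16% of all genes. F3, tissue factor, was at 96.5 against 4.86 CPM and lay in Prg4 members (151 CPM, against 10.6 CPM in F10-led ones). F7, factor VII, was the reverse, at 21.2 CPM in Prg4 members, 260.2 CPM in F10-led members and 47.3 CPM in other macrophages. Plaur, the urokinase receptor, was at 223 against 70.3 CPM, and thrombomodulin, Thbd, at 14.8 against 39.8 CPM. Of 12 eicosanoid genes outside the gate, 8 were higher and 1 lower (median 1.15). With Alox15 included, 9 of 13 were higher in Prg4 members and 3 of 10 in F10-led members, beside 14.8% and 12.9% of all genes. Ptgis, prostacyclin synthase, was at 327 against 2.07 CPM, cyclooxygenase 1, Ptgs1, at 195 against 18.7 CPM, and 5-lipoxygenase, Alox5, at 103 against 33.2 CPM. Cyclooxygenase 2, Ptgs2, was similar in the kinds of member, at 183 CPM in Prg4 and 196 CPM in F10-led members, against 58.1 CPM. Hpgds, haematopoietic prostaglandin D synthase, was the lower one, at 53.6 against 156 CPM.

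Adhesion and acute phase genes were mostly higher in Prg4 members, not in F10-led ones. Of 12 adhesion genes 10 were at least 1.5-fold higher and 1 lower in all members (median 1.42) and in Prg4 members (median 1.77), beside 10.2% and 14.8% higher among all genes. In F10-led members 2 of 9 were higher and 1 lower (median 0.33), beside 12.9% and 17.9% of all genes. Itgam, CD11b, was at 557 against 141 CPM, Itgb2, its partner chain, at 674 against 235 CPM, and Selp at 169 against 0.907 CPM, while Vcam1 was at 29.5 against 109.5 CPM. Of 6 acute phase genes, 5 were higher and 1 lower in all members and in Prg4 members. Beside this, 10.2% of all genes were higher and 16% lower in all members, and 14.8% and 23.3% in Prg4 members. F10-led members had 1 measured and none higher. Most of the higher genes reached the level only through the members, so they could not be counted as lower. Saa3 came with the label, and Saa3, Slpi and Lrg1 are also on the cavity list, so the counts are a description. Slpi, a protease inhibitor, was at 213 against 5.31 CPM, but 56.3% of its UMIs in passing knockout barcodes lay in mesothelial cells. Haptoglobin, Hp, was at 36 against 4.34 CPM and the interleukin 1 receptor antagonist Il1rn at 74.3 against 129 CPM. All 11 mesothelial markers were at 0 UMIs in the Prg4 members.

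Inflammatory signals differed gene by gene, 5 of 14 higher and 4 lower in all members (median 0.53), beside 10.2% and 16% of all genes. Prg4 members had 7 higher and 5 lower, beside 14.8% and 23.3%. F10-led members had 4 higher and 3 lower, beside 12.9% and 17.9%. Il6 was at 410.4 CPM (384 to 438) against 13.7 CPM and was found in 57 of 64 Prg4 members. Il1a was at 435 against 72.4 CPM, while Il1b was at 869 CPM in Prg4 members, 1814 CPM in F10-led members and 949 CPM in other macrophages. The cytokines of the interleukin 6 family Osm and Lif, picked after their values were seen, were at 319 against 27.3 CPM and 62.8 against 0.518 CPM. Of 12 chemokines, 7 were lower and 2 higher in all members (median -0.80), beside 16% and 10.2% of all genes. Prg4 members had 9 of 12 lower (median -1.75, and -2.38 in the 51 low in H2-Aa), beside 23.3% of all genes. F10-led members had 6 of 11 lower (median -0.77), beside 17.9%. Ccl2 was at 434 against 1529 CPM, Ccl7 at 129 against 1082 CPM, Ccl8 at 75.7 against 530.2 CPM and Ccl12 at 14.8 against 139.8 CPM, all of them ligands that draw monocytes and other leukocytes. Leaving out the 6 members with high doublet scores took the log2 ratio of Ccl12 to -4.85 in place of -3.22 and that of Ccl8 to -3.75 in place of -2.80.

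Complement genes differed between the kinds. In all members 6 of 12 were higher and 6 lower, beside 10.2% and 16% of all genes. In Prg4 members the counts were 6 and 5 (median 0.16), beside 14.8% and 23.3%. In F10-led members they were 1 and 8 (median -1.11), beside 12.9% and 17.9%. The higher count in F10-led members was thus near the share of all genes. The lower C1q of the members follows from construction in part, because other macrophages had to hold C1q transcripts and 59.6% of members would pass that limit. C3 was at 254 against 103 CPM, C4b at 725 against 289 CPM, factor B, Cfb, at 60.01 against 16 CPM, and properdin, Cfp, at 739 against 269 CPM. C4b lay in Prg4 members, at 1154 CPM, and was at 55.6 CPM in F10-led members.

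Counts of the remaining lists stand beside 10.2% of all genes higher and 16% lower in the 94 members, and several are near those shares. The shares were 14.8% and 23.3% in Prg4 members, 12.9% and 17.9% in F10-led members, and 17% and 31.3% in the 51 low in H2-Aa. Alternative activation had 1 of 8 higher and 6 lower (median -1.71), with 5 lower in each kind. Its Chil3, a chitinase-like protein, was at 90.02 against 1.23 CPM and its Retnla at 2296 against 6353 CPM. Immediate early genes had 0 of 12 higher and 5 lower, with 4 lower in Prg4 and 10 in F10-led members, and the heat shock gene Hspa1a was at 30.5 against 132 CPM. Iron and haem genes had 0 of 8 higher and 5 lower, with the iron exporter Slc40a1 at 2.31 against 41.8 CPM. Genes of dying-cell uptake had 2 of 10 higher and 4 lower, against 3 and 4 in Prg4 members and 0 and 8 in F10-led ones, and besides Timd4 the scavenger receptors Cd36 and Msr1 were at 953 against 1883 CPM and 204 against 66.9 CPM. Cell cycle genes had 3 of 10 higher and 0 lower in Prg4 members (median -0.12) and 1 of 9 higher and 6 lower in F10-led ones (median -1.01), but 1 of 9 higher and 5 lower in the 51 low in H2-Aa. In all 94 members 1 of 9 was higher and 3 were lower, with Tyms at 12.5 against 6.87 CPM and Top2a at 23.1 against 48.7 CPM. The retinoid list had 2 of 7 higher and 0 lower. Interferon response had 1 of 9 higher and 3 lower (median -0.38, and 0.16 in the 51 low in H2-Aa), with Isg15 at 75.2 against 33.1 CPM and Ifi27l2a at 613 against 1222 CPM. Of 15 transcription factors, 3 were higher and 4 lower. Cebpb was at 1448 against 732 CPM and Maf at 87.7 against 464 CPM.

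The targeted gene, Camk2d (chr3:126596302-126846326), was at 40.6 CPM (32.6 to 50.1) in knockout members and 25 CPM (22.6 to 27.6) in other knockout macrophages, a log2 ratio of 0.71 (95% interval 0.35 to 1.04). A UMI was found in 44 of 94 members, but after thinning to 1500 UMIs per cell in 5.32% of members, 4.09% of other macrophages and 9.67% of T cells, and free RNA made up an estimated 7.47% of the members' UMIs. In the wild-type library it was at 38.3 CPM in members and 46.6 CPM in other macrophages. Where these 3' reads lie relative to the deleted part is not given, so the level does not check the deletion.

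Between the libraries the 2 kinds of member were spread unequally. Prg4 members were 64 of 8032 passing knockout barcodes (0.797%, 95% interval 0.614% to 1.02%) and 4 of 13085 wild-type ones (0.0306%, 0.00833% to 0.0783%). F10-led members were 30 of 8032 (0.374%, 0.252% to 0.533%) and 27 of 13085 (0.206%, 0.136% to 0.300%). The gate is in UMIs while passing barcodes had a median of 9652 UMIs (knockout) and 3799 UMIs (wild type). With a gate of 5 UMIs per 10000 the members were 82 in the knockout library (1.02%) and 73 in the wild-type library (0.558%), and after thinning to 1500 UMIs with a gate of 2 they were 68 (0.847%) and 18 (0.138%). Each library is 1 sample, so genotype, animal, dissection and depth cannot be told apart. Of passing barcodes with 10 or more Prg4 UMIs, 11 knockout and 7 wild-type ones were not members, and all 7 of the wild type were both over the stromal limit and under the Lyz2 limit. Barcodes over the stromal limit held 10.1% of Prg4 UMIs in the knockout library and 69.2% in the wild-type library.

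The 4 wild-type Prg4 members were shallow, with 2610, 4476, 4904 and 6445 UMIs. They held 18, 50, 11 and 20 Prg4 UMIs in the same order. Together they had 28 Serpinb2, 27 Alox15, 27 F5 and 59 Saa3 UMIs. Saa3 and Icam2 had a UMI in all 4, Gata6 and Cd5l in 1 each and Timd4 in 0. That Timd4 was not found among 18435 UMIs allows up to 163 CPM, below the 289 CPM of knockout Prg4 members, though for counting error only. Wild-type F10-led members held 3976 CPM of Mmp12 and 74.1 CPM of Dcstamp, against 607 and 13.1 CPM in other wild-type macrophages.

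Other macrophages are not 1 kind, so the members were also set against 138 lipid-gated, 340 resident-gated and 621 remaining ones. At 2-fold, 271 of 2938 genes were higher in members than in lipid-gated cells (9.22%) and 223 lower (7.59%). Against resident-gated cells 284 of 3006 were higher (9.45%) and 337 lower (11.2%), and against the remaining ones 216 of 2901 were higher (7.45%) and 181 lower (6.24%). Of 25 measured cavity genes outside the gate, 24 were at least 1.5-fold higher and 1 lower against lipid-gated cells, 23 higher and 2 lower against resident-gated cells, and 24 higher and 1 lower against the remaining ones. Of all genes 14%, 16.7% and 10.8% were higher in these comparisons. In the same order 19.4%, 20.6% and 15.8% of all genes were lower. Of 18 lipid-associated genes, 16 were lower in members than in lipid-gated cells and 9 higher than in resident-gated ones, and all 13 resident genes were lower than in resident-gated cells, whose gates used some of these genes. Timd4 also occurred in resident-gated cells, at 176 CPM in members, 34.2 CPM in resident-gated cells and 0 in lipid-gated ones.

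Markers of other cell types were counted in the members. T cell markers (7) came to 49.4 CPM in members and 9.79 CPM in other macrophages. Other macrophages were limited to 1 UMI of Cd3d, Cd3e, Cd3g, Cd79a and Cd79b together, while members were not. For this sum of T and B cell genes, 5 members exceeded 1, up to 25 UMIs. B cell markers (5) were at 40.6 against 166 CPM, and neutrophil markers (6) at 63.2 against 26.7 CPM, with Retnlg at 0. Monocyte markers (7) were at 311 against 224 CPM, fibroblast and progenitor markers (9) at 343 against 318 CPM, endothelial markers (6) at 1425 against 1809 CPM, red cell markers (5) at 1143 against 2619 CPM, and conventional dendritic cell markers (7) at 51.7 against 330 CPM, with Flt3, Clec9a and Ccr7 at 0. Eosinophil markers (5) were at 5.08 against 5.51 CPM, with Epx, Prg2 and Il5ra at 0 UMIs in both groups. All 7 epididymal epithelium markers had none in either group. Mast cell markers (5) were at 6.001 against 31.7 CPM, peritoneal B1 markers (5) at 84.5 against 101 CPM, and sperm markers (8) at 1.85 against 2.33 CPM. General macrophage markers (10, 3 of them C1q) were at 6140 against 13345 CPM. The part of such transcripts in the ratios was not tested.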

How the data were processed

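Single-cell RNA was measured in 1 knockout and 1 wild-type library. The deposited files hold UMI counts per gene and barcode, made by the authors with Cell Ranger 5.0.0 and the mm10 genome, per the submitters' processing notes, which also name Seurat 4.1.1. Counts were used as deposited, with no batch term and no ribosomal or other genes removed from the totals. The members and lists were chosen with earlier results of these data known. Counts were summed over each group of cells and divided by the group's total (CPM), with exact Poisson intervals. Log2 ratios add 0.5 counts to each sum, and their intervals are exact conditional ones. Genes tested had 50 CPM and 30 UMIs in the higher group and were called at 2-fold, and list genes had 10 CPM and were called at 1.5-fold. Named genes were the 15 highest and 15 lowest ratios, the gate and marker genes, and the most abundant, highest and lowest gene of each list. The 5 genes closest to the summed gate genes in level per cell were named too. Further list genes were named after their values were seen. Other macrophages were split into lipid-gated cells (Trem2, Gpnmb, Mmp12 and Itgax at 20 UMIs per 10000 or more), resident-gated ones (Lyve1, Folr2 and Cd163 at 10 or more) and the rest. Barcodes Scrublet scored over 0.25, at an expected rate of 0.08, stayed in, and leaving them out was an alternative. Thinned shares drew 1500 UMIs per cell. The steps were tested on simulated counts with known changes. At the 2-fold rule 100% of simulated 4-fold changes and 50% of 2-fold changes were called, and 0 of 2487 unchanged genes. Python 3.11.15 was used with numpy 2.4.6, scipy 1.17.1, pandas 2.3.3, scanpy 1.11.5 and matplotlib 3.10.9.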

Additional observations from a re-analysis of the deposited data

How the results depend on the processing

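The wild-type count of 31 members depended on the gate: it was 54 with 3 gate UMIs (knockout 138), 10 with 10 gate UMIs (knockout 73), 18 after thinning, with a gate of 2 UMIs (knockout 68), 73 with 5 UMIs per 10000 (knockout 82) and 4 with at least 10 Prg4 UMIs (knockout 64). The 217 higher and 207 lower genes became 140 and 125 with the floors on level doubled, 351 and 433 at 1.5-fold, 137 and 84 at 3-fold, and 388 and 579 in Prg4 members under 4 H2-Aa UMIs per 10000. The lower genes alone came to 314 with 10 gate UMIs, 315 with the floors halved, 371 with a gate on 3 genes (67 members), 397 with at least 10 Prg4 UMIs, and 356 among cells of 10000 to 30000 UMIs (61 members, 672 others). The gene lists' summed counts of 81 higher and 83 lower stayed within 1.5 times under the 13 settings run, and none of the 33 log2 ratios recomputed changed sign, but 82 of 462 such values moved outside the counting interval, and 60 of 260 list medians moved by 0.2 or more. The interferon response median went to 0.16 in Prg4 members low in H2-Aa, in place of -0.38, and the complement median to 0.26, in place of -0.06. The limits on Prg4, on H2-Aa, on depth from 10000 to 30000 UMIs and the omission of the C1q limit were chosen after seeing the data. The cause of the shifts was not tested. No paired analysis was possible because there was 1 library per genotype and no test was made. Depth limits what rare genes such as Gata6 can show in single cells, and the 4 wild-type Prg4 members hold too few UMIs to place most genes.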
